A study of Homo sapiens with 10 samples.

Results

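The genes described here are 10 small nucleolar RNA host genes, GAS5, SNHG1, SNHG5, SNHG6, SNHG7, SNHG8, SNHG16, ZFAS1, EPB41L4A-AS1 and C6orf48. They were chosen by name, as every deposited transcript whose gene name is one of these symbols. The choice gave 56 transcripts of 99493 and 10 gene identifiers of 57110, and none of the 10 shares its identifier with another gene. All 10 genes were detected in every library, and 45 of the 56 transcripts reached 1 count in at least 1 library.

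Small nucleolar RNAs (snoRNAs) are short RNAs of the nucleolus that guide methylation (box C/D class) or pseudouridylation (H/ACA class) of ribosomal RNA. In humans most of them are cut out of the introns of a host transcript, and in the genes described here the spliced exons make a long RNA that is mostly taken to carry no conserved protein, though GENCODE 29 types the C6orf48 gene as protein coding. Several such hosts, GAS5 being the best known, begin with a run of pyrimidines like that of ribosomal protein mRNAs (a 5′ terminal oligopyrimidine, or TOP, tract), are taken up by ribosomes and are then removed by nonsense-mediated decay, so that their steady level depends on both synthesis and decay.

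Long-read nanopore RNA-seq had been run on 10 libraries, made from total RNA with a ligation sequencing kit, from 7 human ovarian cancer cell lines. Lines COV362, COV504, OVKATE, OVMANA, OVTOKO and SK-OV-3 had 1 library each on the PromethION instrument, while IGROV-1 had 2 from each instrument, the PromethION and the MinION, which has a smaller flow cell. No line carries a treatment or an introduced allele in the labels, and each is a single established line grown as such, so a line difference cannot be told apart from a difference between cultures. Nothing in the labels says that the IGROV-1 replicates came from separate cultures, and p-values measure the spread between these libraries only. Nor do the labels say whether the MinION and PromethION libraries of IGROV-1 share a culture or preparation. An instrument difference therefore cannot be told apart from a difference in these.

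The RefSeq start of 6 members carries a pyrimidine run like that of TOP transcripts. RefSeq (GRCh38.p14) gave a promoter for 9 members, and a C followed by at least 4 C or T (read on the gene's own strand), with its first base no more than 5 bases from the annotated start, was found in 6 of the 9 (66.7%). The same run was found in 58 of 78 cytosolic ribosomal protein promoters (74.4%), in 6 of 12 promoters of other noncoding snoRNA hosts (50%) and in 7408 of 35116 promoters of all genes (21.1%). The windows run from 20 bases before the RefSeq start to 30 bases from it, 5′ to 3′, with the pyrimidine run in capitals. The 6 with a run are shown to compare their starts, with EPB41L4A-AS1 as a member without one.
SNHG5: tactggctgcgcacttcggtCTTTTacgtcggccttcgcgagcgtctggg
ZFAS1: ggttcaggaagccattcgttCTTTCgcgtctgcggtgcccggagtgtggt
C6orf48: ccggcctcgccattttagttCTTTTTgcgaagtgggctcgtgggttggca
SNHG7: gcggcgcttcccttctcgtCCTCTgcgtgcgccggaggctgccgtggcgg
SNHG8: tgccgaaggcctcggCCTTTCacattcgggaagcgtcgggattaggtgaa
SNHG16: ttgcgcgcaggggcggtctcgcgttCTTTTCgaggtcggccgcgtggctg
EPB41L4A-AS1: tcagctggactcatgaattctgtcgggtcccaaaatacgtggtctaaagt
In SNHG5 (chr6:85678704-85678753, minus strand), ZFAS1 (chr20:49278622-49278671, plus strand) and C6orf48 (chr6:31834896-31834945, plus strand, named SNHG32 in RefSeq) the run begins at the annotated first base. Windows of the other 4 lie at chr9:136728155-136728204 (minus strand) for SNHG7, chr4:118278742-118278791 (plus) for SNHG8, chr17:76557744-76557793 (plus) for SNHG16 and chr5:112160506-112160555 (plus) for EPB41L4A-AS1. No such run was found within those 5 bases in GAS5 and SNHG1 (in SNHG1 one lies farther upstream in the window), whose main deposited transcripts start 1058 and 139 bases downstream of the RefSeq start, and SNHG6 had no promoter entry. Main deposited transcripts did not all start at these sites either, and the run is part of the annotated RNA only where they start at or before it. Where they start before it, the run lies inside the RNA and not at its first base. The main transcript of SNHG7 starts 1701 bases downstream and that of SNHG16 14 bases downstream, past the run. That of SNHG5 starts 3 bases upstream, that of SNHG8 53, that of C6orf48 308 and that of ZFAS1 464.

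RefSeq placed 35 snoRNA genes inside the 10 hosts. GAS5 held 11 and SNHG1 held 9, SNHG16 and ZFAS1 held 3 each, SNHG5, SNHG7 and C6orf48 held 2 each, and SNHG6, SNHG8 and EPB41L4A-AS1 held 1 each. Mature snoRNAs were not seen themselves, as the 28 of these names that the deposited table lists stood at 0 CPM in all 10 libraries. In a few hosts a long transcript, as annotated, nonetheless contains a whole snoRNA gene inside an exon. Whether reads covered the snoRNA was not tested, but its sequence is part of the annotated RNA to which counts were assigned. The box C/D snoRNAs SNORD25, SNORD1C and SNORD52 are printed for this reason, in GENCODE 29 sequence, with the first box C core TGATGA and the last box D CTGA in capitals, searched on the RNA strand alone. ZFAS1 and SNHG7 have 1 such transcript each, with at most 1 and 4.86 counts in a library.
SNORD25: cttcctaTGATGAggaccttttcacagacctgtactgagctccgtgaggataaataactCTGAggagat
SNORD1C: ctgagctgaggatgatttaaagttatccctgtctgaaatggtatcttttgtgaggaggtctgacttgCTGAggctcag
SNORD52: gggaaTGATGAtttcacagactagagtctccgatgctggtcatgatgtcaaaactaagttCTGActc
SNORD25 (chr11:62855564-62855632, minus strand) lies in an exon of the main SNHG1 transcript, and SNHG1 transcripts that carry it held 92.8% ± 0.7 of SNHG1 counts in IGROV-1 on the PromethION (SD, n = 2), 93.5% ± 0.7 on the MinION (SD, n = 2) and 92.4% to 96.9% in the other 6 lines. SNORD1C (chr17:76558791-76558868, plus strand) lies in an exon of the main SNHG16 transcript, which held 94.0% ± 1.6, 93.6% ± 1.4 and 82.1% to 97.1% of SNHG16 counts in the same 3 sets. The letters TGATGA were not found in SNORD1C. SNORD52 (chr6:31837076-31837142, plus strand) lies in an exon of the C6orf48 transcript ENST00000395788, which held 4.5% ± 1.8, 2.1% ± 0.2 and 1.9% to 12.2% of C6orf48 counts. Among the 955 snoRNA transcripts of GENCODE 29, 320 (33.5%) hold both motifs. Over all members, transcripts with a snoRNA in an exon made up 5.65% of member counts in COV362, the lowest, and 20.1% in COV504, the highest.

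Library totals ran from 1729782 to 3666224 counts. Levels are given in CPM, a gene's counts scaled to a library total of 1000000, which are not divided by transcript length. The least counted member was SNHG7, with 4 to 38 counts, while GAS5 had 207 to 2279 and SNHG6 193 to 1422. IGROV-1 PromethION libraries stood apart in mitochondrial ribosomal RNA, with 9.13% and 10.9% of their counts against 1.58% to 3.31% in the other lines and 1.01% and 1.15% in the MinION libraries. KRT8, KRT18, KRT19 and PAX8, epithelial markers of ovarian tumour lines, reached 1 count in all 10 libraries, EPCAM in 9 and CDH1 in 6. KRT18 ran from 244 to 4627 CPM and PAX8 from 84.1 to 340, but KRT8 from 5.15 to 3274 and KRT19 from 0.578 to 1833. EPCAM and CDH1 fell to 0, with medians of 27.1 and 1.94 CPM. CD3E, a T cell marker, was at 0 in all, and the leukocyte marker PTPRC, the endothelial marker VWF and the fibroblast marker DCN stayed at or below 0.578 CPM. Of the other 4 genes on that list of 8, CD68, a lysosomal protein used as a macrophage marker, stood at 347 to 1065 CPM in all 10 libraries. The collagen genes COL1A1 and COL1A2 reached 219 CPM in SK-OV-3 and 429 CPM in COV362, and the endothelial PECAM1 reached 10.6 CPM in SK-OV-3. The 8 genes summed to 379 CPM in OVKATE, the lowest, and 1143 CPM in COV362, the highest, and their part in the line differences was not tested.

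GAS5 (ENSG00000234741, chr1:173863900-173868882, minus strand) and SNHG1 (ENSG00000255717, chr11:62851988-62855914, minus strand) carry the longest snoRNA arrays, mostly of box C/D type. GAS5 stood at 146 CPM in OVMANA, 102 in OVKATE, 260.1 in OVTOKO, 175 in SK-OV-3, 693 in COV362, 110.3 in COV504, 729.6 and 539 in the IGROV-1 PromethION libraries, and 622 and 497 in the MinION libraries. COV362 and IGROV-1 formed the upper end and did not differ beyond their intervals (95% Poisson, counting error only), and every other line lay below all 4 IGROV-1 libraries. SNHG1 stood at 26.2 CPM in OVMANA, 47.5 in OVKATE, 41.6 in OVTOKO, 84.6 in SK-OV-3, 85.4 in COV362, 32.5 in COV504, 73.5 and 67.4 in IGROV-1 on the PromethION, and 60.6 and 50.1 on the MinION. Each line in the order of SNHG1 levels overlapped its neighbour within these intervals, and the highest line was 3.26 times the lowest, against 6.77 times for GAS5.

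SNHG5 (ENSG00000203875, chr6:85660950-85678748, minus strand), which hosts SNORD50A and SNORD50B, varied most among the 10 genes. It stood at 27.3 CPM in OVMANA, 21.3 in OVKATE, 157 in OVTOKO, 66.3 in SK-OV-3, 527 in COV362, 36.5 in COV504, 243 and 214 in IGROV-1 on the PromethION, and 214 and 179 on the MinION. COV362 was 24.8 times OVKATE, and in the falling order COV362, IGROV-1, OVTOKO, SK-OV-3, COV504 the intervals of neighbours did not overlap, while COV504, OVMANA and OVKATE overlapped in turn.

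SNHG6 (ENSG00000245910), host of SNORD87, stood at 103 CPM in OVMANA, 243 in OVKATE, 297 in OVTOKO, 229.9 in SK-OV-3, 557 in COV362, 199.8 in COV504, 349 and 331 in IGROV-1 on the PromethION, and 306 and 299.7 on the MinION. COV362 lay above and OVMANA below every other library. C6orf48 (ENSG00000204387, chr6:31834608-31839766, plus strand), host of SNORD48 and SNORD52, stood at 90.3 CPM in OVMANA, 98.4 in OVKATE, 166 in OVTOKO, 189 in SK-OV-3, 436 in COV362, 69.9 in COV504, 184 and 178 in IGROV-1 on the PromethION, and 214 and 220.3 on the MinION. COV362 was again the highest, 6.25 times COV504, and SK-OV-3, IGROV-1 and OVTOKO overlapped.

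SNHG16 (ENSG00000163597, chr17:76557766-76565348, plus strand) and ZFAS1 (ENSG00000177410, chr20:49278178-49295738, plus strand), hosts of the SNORD1 and SNORD12 families, had orders of their own. SNHG16 stood at 37.4 CPM in OVMANA, 66.8 in OVKATE, 52.0 in OVTOKO, 14.2 in SK-OV-3, 63.5 in COV362, 103 in COV504, 46.6 and 49.0 in IGROV-1 on the PromethION, and 41.7 and 42.6 on the MinION. COV504 was the highest and SK-OV-3 the lowest, 7.28 times apart, and the 5 lines between overlapped in turn. ZFAS1 stood at 25.1 CPM in OVMANA, 31.7 in OVKATE, 117 in OVTOKO, 31.9 in SK-OV-3, 91.3 in COV362, 39.6 in COV504, and 69.2 and 48.1 in IGROV-1 on the PromethION. Its MinION values, 9.55 and 9.89 CPM, were the lowest of the 10 libraries.

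EPB41L4A-AS1 (ENSG00000224032, chr5:112160526-112164276, plus strand), SNHG8 (ENSG00000269893, chr4:118278709-118279823, plus strand) and SNHG7 (ENSG00000233016, chr9:136721366-136728184, minus strand) host H/ACA snoRNAs. EPB41L4A-AS1 stood at 11.2 CPM in OVMANA, 24.7 in OVKATE, 37.6 in OVTOKO, 60.3 in SK-OV-3, 36.8 in COV362, 23.1 in COV504, 61.9 and 58.8 in IGROV-1 on the PromethION, and 82.6 and 93.6 on the MinION. SNHG8 stood at 59.8 CPM in OVMANA, 112 in OVKATE, 112 in OVTOKO, 178 in SK-OV-3, 153 in COV362, 64.5 in COV504, 197 and 194 in IGROV-1 on the PromethION, and 146 and 163 on the MinION. Both were lowest in OVMANA, and both had IGROV-1 and SK-OV-3 as their highest lines on the PromethION, which did not differ beyond their intervals. SNHG7 stood at 8.02 CPM in OVMANA, 13.4 in OVKATE, 8.67 in OVTOKO, 7.60 in SK-OV-3, 14.9 in COV362, 7.56 in COV504, 5.55 and 3.44 in IGROV-1 on the PromethION, and 1.64 and 1.24 on the MinION. No neighbours in its order differed beyond their intervals.

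**Figure D1:**
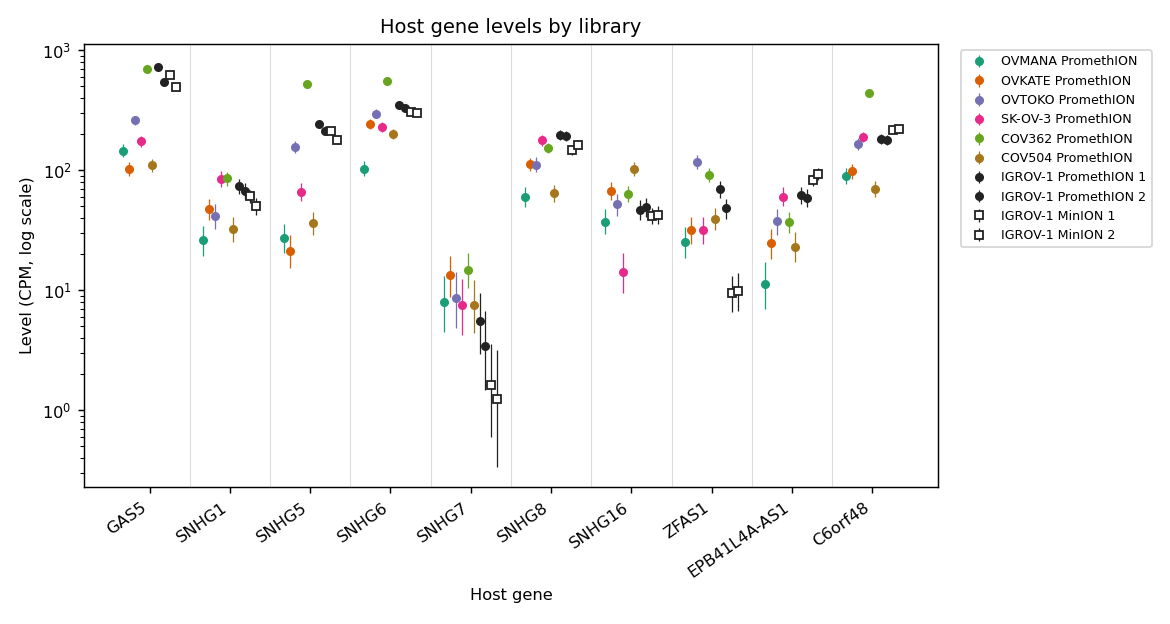
Level of each host gene (CPM, log axis) in the 10 libraries, filled circles for PromethION and open squares for MinION, with bars for the 95% Poisson interval (counting error only). COV362 (green) is at the top for SNHG5, SNHG6 and C6orf48, SNHG5 spans 21.3 to 527 CPM, and ZFAS1 on the MinION lies under 10 CPM.

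Against IGROV-1, most members were lower in OVMANA, OVKATE and COV504, 5 of 10 were lower in SK-OV-3, and 5 of 10 were higher in COV362. Each line was compared with IGROV-1 PromethION by edgeR's quasi-likelihood test on all 13030 genes with enough counts (Benjamini-Hochberg adjusted p under 0.05, two-sided). All 6 comparisons share the IGROV-1 libraries, and the spread of a line with 1 library is taken from the IGROV-1 replicates. The 60 tests of members gave 8 calls of a higher and 32 of a lower level. Log2 changes are on the TMM-scaled count scale, so they differ a little from ratios of CPM.

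In OVMANA 8 of the 10 members were lower and 0 higher, where 35.4% of all genes were called, 16.5% lower and 18.9% higher. SNHG5 fell by 3.01 on the log2 scale (SE 0.25, edgeR adjusted p 5.9e-05), EPB41L4A-AS1 fell by 2.36 (SE 0.25, adjusted p 0.00022) and GAS5 fell by 2.06 (SE 0.26, adjusted p 0.00057). SNHG16 and SNHG7 were not called, at -0.29 and 0.89. The members' median change was -1.51 against -0.01 for all genes. Of 79 ribosomal protein genes 18 were lower and 9 higher, with a median of -0.09.

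In OVKATE 8 members were lower and 1 higher, where 49.2% of all genes were called, 22.4% lower and 26.8% higher. SNHG5 fell by 3.72 (SE 0.26, edgeR adjusted p 1.8e-05) and GAS5 fell by 2.93 (SE 0.28, adjusted p 7.7e-05), while SNHG6 fell by 0.78 (SE 0.16, adjusted p 0.0040), a call that DESeq2 did not make (adjusted p 0.0035 to 0.084 over its alternatives). SNHG7 rose by 1.26 (SE 0.44, adjusted p 0.041), and that call was lost under DESeq2, with no filter on low counts, without IGROV-1 PromethION replicate 2 and without either MinION library (adjusted p 0.022 to 0.63 over its alternatives). The members' median was -1.14 against 0.01 for all genes. In the same line 73 of 79 ribosomal protein genes were lower and 0 higher, with a median of -1.88, led by RPL23, a large subunit protein, at -3.44 (SE 0.19, edgeR adjusted p 5.2e-06).

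OVTOKO had the fewest calls, with 3 members lower and 1 higher, where 34.1% of all genes were called, 15.9% lower and 18.2% higher. GAS5 fell by 1.21 (SE 0.25, edgeR adjusted p 0.0066) and SNHG8 fell by 0.73 (SE 0.16, adjusted p 0.0092), the latter lost under DESeq2 (adjusted p 0.011 to 0.30 over its alternatives). ZFAS1 rose by 1.08 (SE 0.22, adjusted p 0.0068), a call lost under DESeq2 and with the first MinION library left out (adjusted p 9.5e-06 to 0.24 over its alternatives). EPB41L4A-AS1 was called lower at an adjusted p of 0.049, a call that none of the 9 alternatives kept (adjusted p 0.055 to 0.71). The members' median was -0.29 against 0.00 for all genes, and without MinION replicate 1 the count of members called was 2.

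In SK-OV-3 5 members were lower and 0 higher, where 41.8% of all genes were called, 19.8% lower and 22% higher. GAS5 fell by 2.09 (SE 0.26, edgeR adjusted p 0.00044), SNHG5 fell by 2.01 (SE 0.22, adjusted p 0.00023) and SNHG16 fell by 1.98 (SE 0.24, adjusted p 0.00038). SNHG1, EPB41L4A-AS1 and C6orf48 lay at 0.03, -0.23 and -0.17 and were not called. The members' median was -0.58, and 64 of 79 ribosomal protein genes were lower and 0 higher.

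COV362 was the line in which members were higher, 5 of 10, with 1 lower, where 42.5% of all genes were called, 23.7% higher and 18.8% lower. C6orf48 rose by 1.31 (SE 0.14, edgeR adjusted p 0.00022), SNHG5 rose by 1.25 (SE 0.18, adjusted p 0.00094), SNHG7 rose by 1.76 (SE 0.41, adjusted p 0.0091), SNHG6 rose by 0.76 (SE 0.15, adjusted p 0.0041) and ZFAS1 rose by 0.68 (SE 0.22, adjusted p 0.037). GAS5, at 0.17, was not called. The call of SNHG7 was lost under DESeq2 (adjusted p 0.0014 to 0.51 over its alternatives), and that of ZFAS1 under DESeq2, with no filter, without PromethION replicate 2 and without either MinION library (adjusted p 0.0020 to 0.55 over its alternatives). EPB41L4A-AS1 fell by 0.67 (SE 0.19, adjusted p 0.022), a call lost under DESeq2, without PromethION replicate 1 and without either MinION library (0.024 to 0.62). The members' median was 0.57 against 0.04 for all genes, and ribosomal protein genes split into 20 higher and 8 lower of 79.

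In COV504 7 members were lower and 1 higher, where 43.5% of all genes were called, 19.6% lower and 24% higher. SNHG5 fell by 2.72 (SE 0.24, edgeR adjusted p 5.6e-05) and GAS5 fell by 2.60 (SE 0.27, adjusted p 0.00016). SNHG16 rose by 1.03 (SE 0.17, adjusted p 0.0018), a call lost under DESeq2 (adjusted p 0.00048 to 0.19 over its alternatives). The members' median was -1.32, and 54 of 79 ribosomal protein genes were lower and 1 higher.

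**Figure D2:**
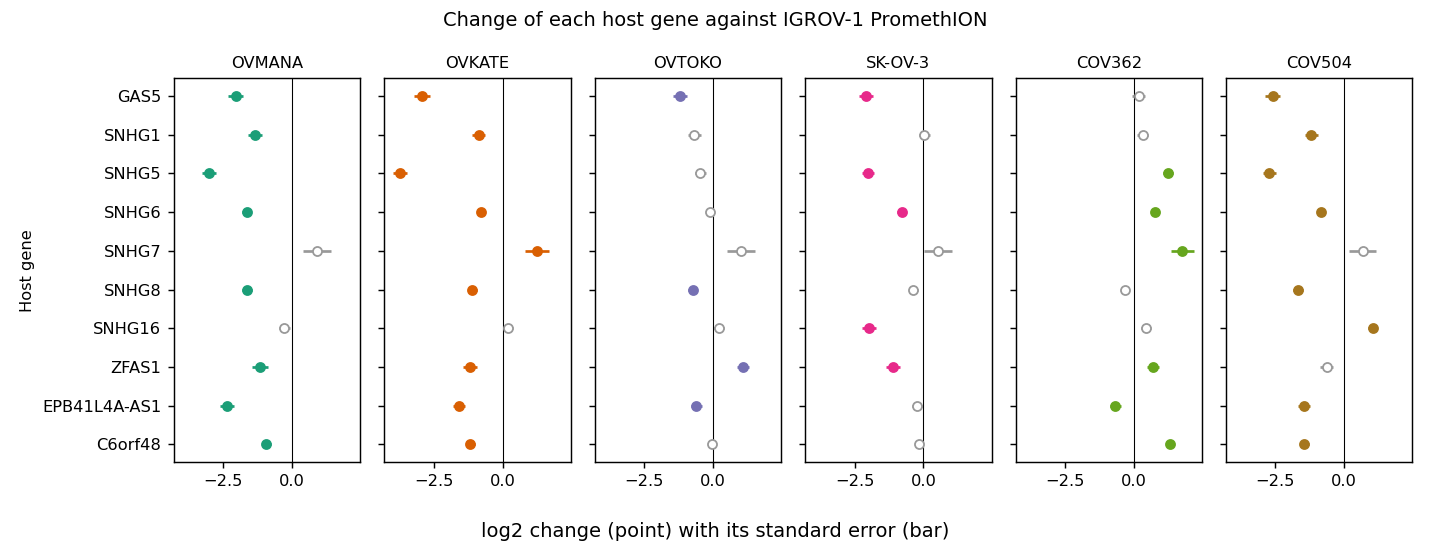
Log2 change of each host gene in each line against IGROV-1 PromethION (point) with its standard error (bar), filled and coloured where the edgeR adjusted p was under 0.05 and open grey where not. In OVMANA, OVKATE and COV504 most points lie left of 0, with SNHG5 farthest left, and in COV362 5 of the 10 are called to the right.

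Over the lines GAS5 and EPB41L4A-AS1 were lower in 5 of 6, SNHG5, SNHG6 and SNHG8 in 4, SNHG1, ZFAS1 and C6orf48 in 3, SNHG16 in 1 and SNHG7 in 0. Of the 40 line changes called, 20 were called in every alternative run, and DESeq2 called 20. Among those that held throughout were all 5 calls of GAS5 and all 5 of SNHG5. Calls of SNHG1 held in none of its 3 lines under DESeq2, and calls of ZFAS1 in none of its 5 lines, either under DESeq2 or without MinION replicate 1. For EPB41L4A-AS1, DESeq2 kept the call in OVMANA only.

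Other genes of the pathway were counted from lists, to be read against all genes, of which 15.9% to 22.4% were lower and 18.2% to 26.8% higher by line. Of 14 tested noncoding hosts outside the members, 4 were lower and 3 higher in COV362, the most even split. The other lines had 8 lower and 1 higher (COV504), 9 and 2 (OVTOKO and OVMANA alike), 6 and 3 (OVKATE) and 8 and 0 (SK-OV-3). DANCR, host of SNORA26, went from 389.9 ± 58.1 CPM in IGROV-1 PromethION (SD, n = 2) to 22.8 in SK-OV-3 and 28.9 in COV504, log2 changes of -4.32 (SE 0.29, edgeR adjusted p 1.8e-05) and -3.83 (SE 0.27, adjusted p 2.1e-05). SNHG20 went the other way in COV504, from 27.4 ± 3.7 CPM to 193 (2.74, SE 0.21, adjusted p 3.2e-05).

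Protein-coding snoRNA hosts, among them translation factors and chaperones, had 14 members tested. SK-OV-3 had the most of them lower, 12, then OVKATE 11, OVTOKO 8, COV504 7, OVMANA 5 and COV362 3. Rises were called for 2 in COV362 and 1 in OVTOKO. EEF2, the translocation factor of translation, was the largest called fall of this list in OVKATE, from 1568 ± 133 CPM to 441 (-2.13, SE 0.18, edgeR adjusted p 4.3e-05). Of the 8 snoRNP core proteins, which bind the snoRNAs, 3 to 5 were lower and 0 higher in every line but COV362, where 1 was higher and 1 lower. NOP56, NOP58 and DKC1 are on this list and on that of protein-coding hosts, so their calls are counted in both. FBL, the methyltransferase of box C/D particles, stood at 491 ± 4.4 CPM in IGROV-1 PromethION, at 136 in OVKATE (-2.15, SE 0.18, edgeR adjusted p 3.7e-05) and at 184 in SK-OV-3 (-1.65, SE 0.17, adjusted p 0.00017). The 10 nonsense-mediated decay factors had 2 to 5 calls in a line, where 34.1% to 49.2% of all genes were called. UPF1, the helicase at the core of that pathway, rose in OVMANA by 0.59 (SE 0.17, edgeR adjusted p 0.028), from 61.7 ± 0.4 CPM to 89.2, and fell in OVTOKO by 1.04 (SE 0.21, adjusted p 0.0060).

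Summed over the 10 genes, the hosts made up 0.0534% of counts in OVMANA, 0.0687% in COV504, 0.0761% in OVKATE, 0.104% in SK-OV-3, 0.125% in OVTOKO and 0.266% in COV362. IGROV-1 stood at 0.182% ± 0.020 on the PromethION (SD, n = 2) and 0.163% ± 0.010 on the MinION (SD, n = 2). The 79 cytosolic ribosomal protein genes made up 7.17% in OVKATE, 11.3% in SK-OV-3, 13.0% in COV504, 18.3% in OVMANA, 19.9% in OVTOKO, 20.5% ± 1.3 in IGROV-1 PromethION, 23.2% in COV362 and 24.2% ± 1.9 in IGROV-1 MinION. COV362 was the highest line on the PromethION by both measures. OVMANA broke the order, with the lowest host share and a ribosomal protein share above 3 of the other lines.

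Over the 7 lines on the PromethION, Pearson's r between the shares was 0.69 and Spearman's rho 0.68, given as a description because both shares have the same denominator and there are 7 points. Without OVKATE and SK-OV-3, the lines farthest from the median ribosomal protein share, r was 0.81 and rho 0.90 over 5 lines. Gene by gene, r with the ribosomal protein share was 0.77 for GAS5, 0.74 for SNHG5, 0.67 for ZFAS1, 0.60 for C6orf48 and 0.55 for SNHG6. It was 0.20 for SNHG8, 0.19 for SNHG1, 0.14 for EPB41L4A-AS1, -0.08 for SNHG7 and -0.09 for SNHG16. These values rest on OVKATE and SK-OV-3, since over the 5 other lines r was 0.76 for SNHG1, 0.71 for SNHG8, 0.49 for EPB41L4A-AS1, 0.46 for SNHG7 and -0.66 for SNHG16. Over the same 5 it was 0.81 for GAS5 and for C6orf48, 0.80 for SNHG5, 0.73 for SNHG6 and 0.58 for ZFAS1. Per 1000 ribosomal protein counts, member counts ran from 2.93 in OVMANA through 5.30 in COV504, 6.26 in OVTOKO, 8.85 ± 0.38 in IGROV-1 PromethION, 9.15 in SK-OV-3 and 10.6 in OVKATE to 11.5 in COV362. OVKATE, lowest in ribosomal protein share, was thus second in this ratio.

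**Figure D3:**
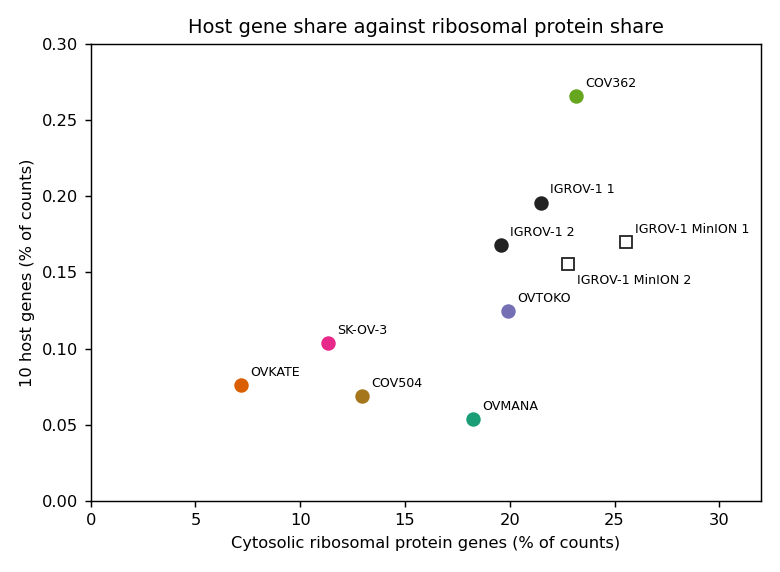
Share of counts in the 10 host genes against the share in 79 cytosolic ribosomal protein genes, 1 point per library, filled circles for PromethION and open squares for MinION. COV362 is highest on the vertical axis at 0.266%, and OVMANA lies lowest at 0.0534% despite a ribosomal protein share of 18.3%.

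Among themselves, the members' log2(CPM + 1) levels over the 7 lines had a median Pearson r of 0.62 over 45 pairs, with 37 pairs above 0 and a range of -0.43 to 0.95 (a description over 7 points that share library and depth). GAS5 and SNHG5 were the closest pair at 0.95, then SNHG1 and SNHG8 at 0.94. SNHG6 (median r 0.75) and C6orf48 (0.74) were nearest to the rest, and SNHG16 (-0.03) and SNHG7 (0.09) farthest. SNHG16 and SNHG8 gave the lowest r. Outside the members, NRDE2, FKBPL and NLGN4X had the highest median r to them, 0.84, 0.82 and 0.82, of 13020 genes compared. They were picked by these values over the same 7 points, and a link to the members was not tested.

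Most members were counted in 1 dominant transcript. All 56 deposited transcripts are in GENCODE 29, where the 10 genes have 124 transcripts, 38 of them annotated as retaining an intron. None of those 38 is among the deposited 56, although SNHG1, SNHG16 and C6orf48 have deposited transcripts whose exons hold a snoRNA. Few transcripts of that type were deposited for any gene, 132 among 99493, where GENCODE 29 has 28102 of 206761. As a mean share of the gene's counts over the 10 libraries, the main transcript held 100% in EPB41L4A-AS1 (ENST00000413221, its only one), 99.6% in ZFAS1 (ENST00000450535), 97.5% in SNHG5 (ENST00000369605), 95.6% in SNHG6 (ENST00000520944), 92.8% in SNHG16 (ENST00000448136), 86.1% in SNHG1 (ENST00000540725) and 82.1% in SNHG7 (ENST00000436596). GAS5, SNHG8 and C6orf48 divided their counts between a pair of transcripts above 10%.

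For GAS5 the pair was ENST00000450589 (chr1:173863901-173867987, minus strand, 12 exons, 632 bases) and ENST00000448718 (chr1:173863901-173867043, 11 exons, 565 bases), which share their 3′ end and start 944 bases apart. The longer one held 52.6% of GAS5 counts in OVMANA, 72.5% in OVKATE, 61.2% in OVTOKO, 46.3% in SK-OV-3, 76.9% in COV362, 75.8% in COV504, 55.8% ± 1.9 in IGROV-1 PromethION and 50.4% ± 1.5 in IGROV-1 MinION (SD, n = 2 each). SK-OV-3 was the only library of the 10 in which the shorter one led, at 49.8%.

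For SNHG8, ENST00000602414 (chr4:118278709-118279823, plus strand, 3 exons, 672 bases) held 63.4% in OVMANA, 81.5% in OVKATE, 57.9% in OVTOKO, 87.2% in SK-OV-3, 56.7% in COV362, 84.6% in COV504, 78.5% ± 5.3 in IGROV-1 PromethION and 64.2% ± 3.1 in IGROV-1 MinION. The rest was mainly ENST00000602819, which has 4 exons and ran from 11.5% in COV504 to 39.7% in OVTOKO. For C6orf48, ENST00000375640 (chr6:31834608-31839761, plus strand, 4 exons, 1053 bases) ran from 46.5% in COV362 to 70.6% in SK-OV-3, and ENST00000375638, which has 5 exons and starts 300 bases downstream, from 13.0% in SK-OV-3 to 32.8% in OVKATE.

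**Figure D4:**
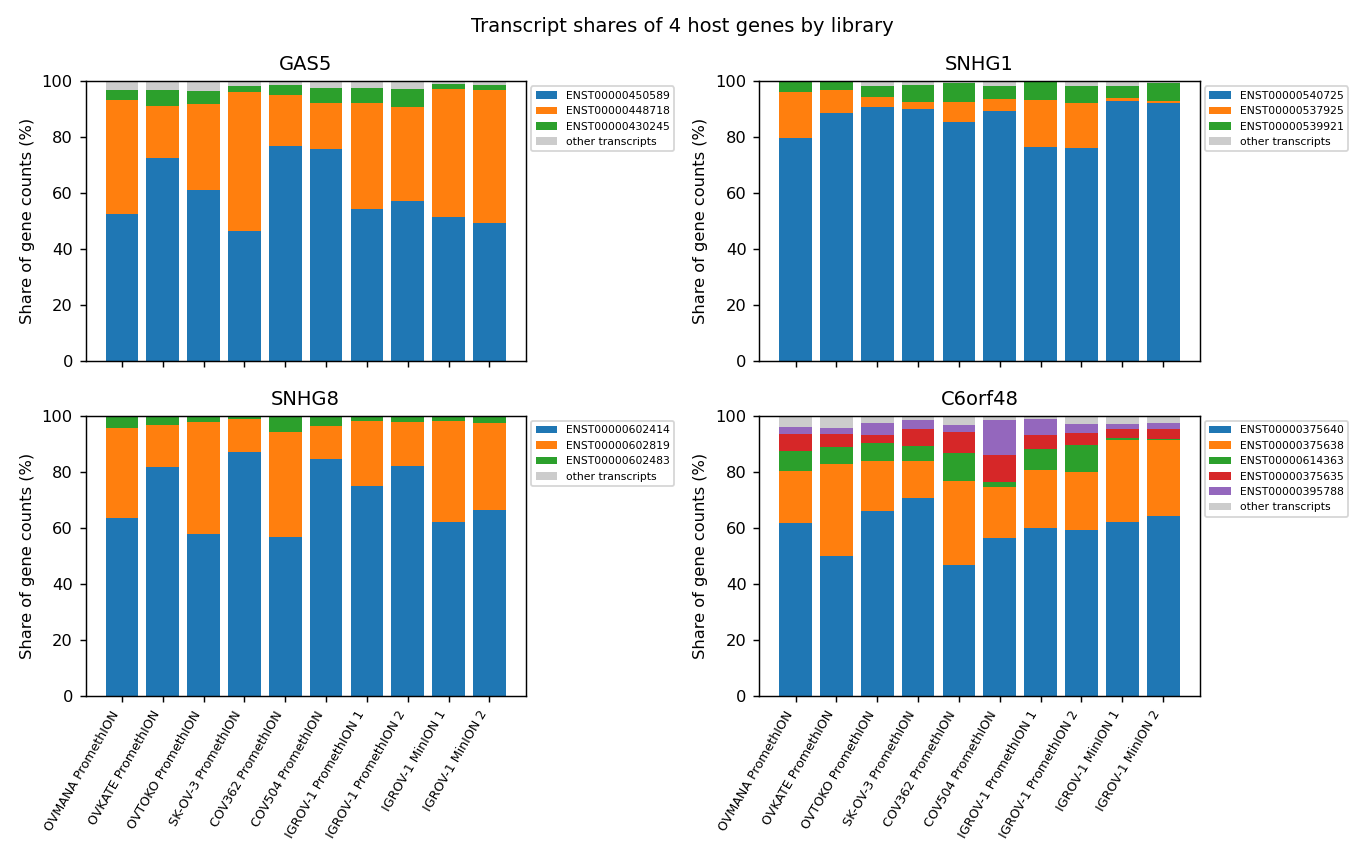
Share of each gene's counts (%) by transcript in the 10 libraries for GAS5, SNHG1, SNHG8 and C6orf48, as stacked bars from 0 to 100, with transcripts under a mean share of 3% joined in grey. The lower GAS5 block (ENST00000450589) runs from 46.3% in SK-OV-3 to 76.9% in COV362, and the green C6orf48 block (ENST00000614363) all but disappears in the MinION libraries.

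The line differences in these shares were mostly not called. Transcript usage was tested with edgeR's procedure for relative change within a gene, with a Simes p per gene adjusted over 4730 genes, and 7 members were tested in each line. Counts of members called were 0 of 7 in OVMANA (2.75% of all genes called), OVTOKO (1.35%), SK-OV-3 (2.07%), COV362 (2.98%) and COV504 (2.56%), and 1 of 7 in OVKATE (4.97%). In OVKATE the SNHG6 transcript ENST00000520348 held 7.44% of SNHG6 counts against 1.03% ± 0.71 in IGROV-1 PromethION (SD, n = 2). On the natural log scale its relative change was 1.99 (edgeR Simes adjusted p 0.017 for the gene). The call was lost when any 1 of the 4 IGROV-1 libraries was left out (adjusted p 0.051, 0.092, 0.11 and 0.18).

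Between instruments, on the same line, 1 of 9 members tested was called in a fit that did not pair libraries by replicate number. With that number as a block more members were called, as given at the end without the share of all genes. Labels do not say that these numbers pair libraries. The 4 IGROV-1 libraries were compared with edgeR's quasi-likelihood test over 10041 genes, of which 0.817% were called, 0.707% lower and 0.11% higher on the MinION. ZFAS1 was lower on the MinION, 9.72 ± 0.24 against 58.7 ± 14.9 CPM (SD, n = 2 each), and fell by 2.63 on the log2 scale (SE 0.23, edgeR adjusted p 0.0012). Both MinION libraries lay below both PromethION libraries and below the 6 other lines. The call was lost without either MinION library (adjusted p 0.51 and 0.39) and with no filter on low counts (0.057), while the log2 change stayed between -2.87 and -2.34 over all alternatives (adjusted p 8.1e-47 to 0.51).

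The other 8 were not called, from -0.38 for SNHG1 and for SNHG8 (edgeR adjusted p 0.29 and 0.17) to 0.50 for EPB41L4A-AS1 (adjusted p 0.14). The members' median was -0.22 against 0.00 for all genes. SNHG7 was below the filter, at 13 and 8 counts on the PromethION and 6 and 4 on the MinION. SNHG25, a noncoding host outside the members, was lower too, 2.5 ± 0.8 against 37.3 ± 0.5 CPM, a log2 change of -3.93 (SE 0.27, edgeR adjusted p 0.00016). It was 1 of 2 called among the 13 such hosts tested.

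In GENCODE 29, 6 members overlap a gene on the opposite strand. ZFAS1 overlaps ZNFX1 over 249 bases. ZNFX1 stood at 13.1 ± 0.4 CPM on the PromethION and 11.8 ± 3.9 on the MinION (SD, n = 2 each) in IGROV-1, and between 21.8 and 83.6 CPM in the other lines. EPB41L4A-AS1 lies within EPB41L4A on the opposite strand over 3751 bases, and EPB41L4A stood at 6.0 ± 1.8 and 9.0 ± 0.4 CPM, and at 3.04 to 21.3 CPM in the other lines. SNHG7 overlaps FAM69B over 2685 bases, and FAM69B, at 24.4 ± 1.7 and 23.9 ± 1.0 CPM, had more counts than SNHG7 in IGROV-1, and stood at 1.01 to 26.7 CPM elsewhere. SNHG16 overlaps AC015802.6 over 1639 bases, which stood at 1.5 ± 0.3 and 0.718 ± 0.142 CPM in IGROV-1 and between 0.506 and 88.5 CPM in the other lines, with the highest level in OVKATE. Whether counting used strand is not given in the sources used here, so reads of these pairs may not be told apart, and their part in the results was not tested.

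Transcript shares differed between the MinION and PromethION libraries of IGROV-1 in 3 of the 6 members tested, where 5.98% of the 2979 genes tested were called. In each of the 3, a minor transcript took a smaller share on the MinION. In GAS5 this was ENST00000430245 (chr1:173863901-173868882, minus strand, 13 exons), which starts 895 bases upstream of the main transcript. ENST00000430245 held 5.83% ± 0.81 on the PromethION and 1.73% ± 0.07 on the MinION (SD, n = 2 each). On the natural log scale its relative change was -1.20 (edgeR Simes adjusted p 0.013 for the gene). Its levels were 38.4 and 34.5 CPM against 11 and 8.34, from 170 counts in both PromethION libraries together and 67 in both MinION libraries.

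In SNHG1 it was ENST00000537925 (chr11:62851988-62855867, minus strand, 10 exons), which starts 121 bases upstream of the main transcript. ENST00000537925 held 16.5% ± 0.4 and 0.892% ± 0.179, a relative change of -2.95 on the natural log scale (adjusted p 0.0011 by edgeR's Simes test). Its levels were 12.3 and 10.9 CPM against 0.617 and 0.383, from 54 and 4 counts, a MinION to PromethION ratio of 0.0501 (95% counting interval 0.0132 to 0.136). In C6orf48 it was ENST00000614363 (chr6:31834922-31839766, plus strand, 4 exons), which starts 314 bases downstream of the main transcript. ENST00000614363 held 8.54% ± 1.41 and 0.452% ± 0.305, a relative change of -2.85 on the natural log scale (adjusted p 3.6e-05 by edgeR's Simes test). Its levels were 13.9 and 17.0 CPM against 1.43 and 0.520, from 72 and 7 counts, a ratio of 0.0658 (95% counting interval 0.0255 to 0.143).

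Groups did not overlap in any of these 3 transcripts, which adds no support, as they were picked by the test on the same libraries. The call of GAS5 was lost without any 1 of the 4 libraries (adjusted p 0.076 to 0.15), that of SNHG1 was lost without PromethION replicate 1 (adjusted p 0.057), and that of C6orf48 was kept in each case (adjusted p 0.0048 to 0.010). SNHG8 was not called (edgeR Simes adjusted p 0.073), with its main transcript at 78.5% ± 5.3 and 64.2% ± 3.1. In the other 6 lines, all on the PromethION, ENST00000430245 ran from 3.56 to 24.3 CPM, ENST00000537925 from 1.48 to 6.01 and ENST00000614363 from 1.12 to 42.5.

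**Figure D5:**
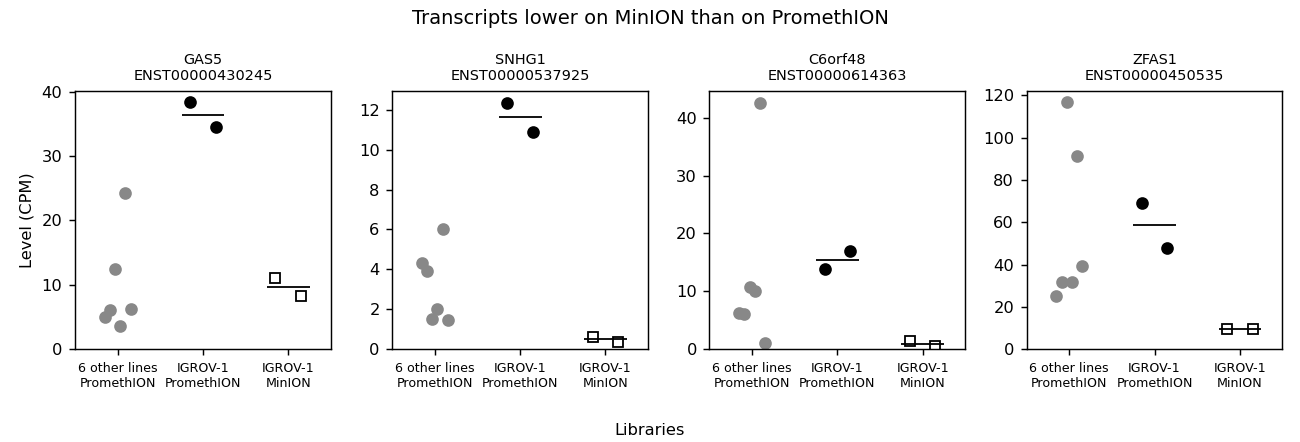
Level (CPM) of the GAS5, SNHG1 and C6orf48 transcripts whose share was lower on the MinION, and of the main ZFAS1 transcript, with 1 point per library and a line at the mean of each IGROV-1 pair. In all 4 panels, which were picked for calls between these same libraries, both MinION libraries (open squares) lie below both IGROV-1 PromethION libraries (black). ZFAS1 stood at 9.55 and 9.58 CPM against 69.2 and 48.1.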

How the data were processed

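RNA of 7 ovarian cancer cell lines was sequenced on nanopore instruments, with reads aligned by minimap2 2.24-r1122 to GRCh38, per the submitters' processing notes. For the quantification tool, annotation release, use of strand and filters, the answer is not given in the sources used here. Each library's deposited file holds an estimated count and a TPM for every transcript. The deposited TPM equals the CPM computed from the counts (greatest difference 5.6e-11), which means that no length enters it. Estimated counts were summed per gene and rounded to whole numbers. Genes were tested with edgeR 4.0.16 (R 4.3.3) by its quasi-likelihood test with TMM scaling, the default filter by group and Benjamini-Hochberg adjustment over all genes, called at an adjusted p under 0.05. Instruments were compared on the 4 IGROV-1 libraries, and lines in a fit over 10 libraries with 2 residual degrees of freedom, all from IGROV-1. Transcript usage was tested with diffSpliceDGE, and each test was first tested on simulated data. DESeq2 1.42.0, other scaling and filters, and leaving out replicates were the alternatives.

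Members and lists were chosen with earlier results of these data known. All members were described, with their transcripts of at least 10% mean share and the transcript behind each usage call. In other lists a gene was named only as the largest called rise or fall in a comparison, and the 3 genes most like the members by median r. The labels give the groups. The replicate pairs were kept as replicates, since chi-square divided by its degrees of freedom was 4.36 (PromethION) and 6.73 (MinION). Coordinates are on GRCh38 and count from 1, transcripts are from GENCODE 29 and promoters from RefSeq. A C6orf48 promoter was matched by the symbol SNHG32.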

Additional observations from a re-analysis of the deposited data

How the results depend on the processing

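No called change of a member reversed. Of 371 values of the 41 called changes under alternatives, 323 kept their call and 48 lost it. DESeq2 called 5 members in OVMANA, 4 in OVKATE, 1 in OVTOKO, 3 in SK-OV-3, 3 in COV362 and 4 in COV504. Leaving out an IGROV-1 library gave 7 to 8 in OVMANA, 7 to 9 in OVKATE, 2 to 4 in OVTOKO, 4 to 5 in SK-OV-3, 4 to 5 in COV362, 8 to 9 in COV504 and 0 to 1 between instruments, where no filter gave 0. Usage calls went to 1 to 2 between instruments and to 0 in OVKATE. Shares of all genes called in these runs are not given here, so the counts are not read as particular to the members. The causes of these shifts were not tested.

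With the replicate number as a block, 8 of 9 members were called between instruments (2 higher, 6 lower) and 4 in usage. The shares of all genes called in these blocked fits are not given here, so the counts are not read as particular to the members. Labels do not say that numbers pair libraries, and replicate deviations correlated at 0.49 over 7894 genes, with 2 pairs.

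Uncalled changes that turned sign were C6orf48 in OVTOKO with DESeq2 size factors (0.0055) and DESeq2 (0.0057), and, with a library left out, GAS5 between instruments (-0.43 to 0.020), SNHG1 in SK-OV-3 (-0.022 to 0.10) and GAS5 in COV362 (-0.031 to 0.40).

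Without genes whose names start with MT-, member shares were 0.131% in OVTOKO, 0.109% in SK-OV-3, 0.278% in COV362, 0.212% in IGROV-1 PromethION and 0.173% on the MinION, and ribosomal protein shares 18.8% in OVMANA, 7.45% in OVKATE, 20.9% in OVTOKO, 11.9% in SK-OV-3, 24.2% in COV362, 13.6% in COV504 and 23.9% in IGROV-1 PromethION, with r at 0.72. Without joined identifiers, member shares were 0.0809% in OVKATE, 0.132% in OVTOKO, 0.109% in SK-OV-3, 0.281% in COV362 and 0.0724% in COV504, and ribosomal protein shares 18.3% in OVMANA, 7.23% in OVKATE, 11.1% in SK-OV-3, 23.3% in COV362 and 12.9% in COV504. Spearman's rho was 0.64 to 0.68 with an IGROV-1 library left out. SNHG7, at 4 to 38 counts, is the member most limited by depth.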
